A study of Homo sapiens with 6 samples.

Results

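The genes described are 7 ligands of the epidermal growth factor (EGF) family, HBEGF, AREG, EREG, TGFA, EPGN, BTC and EGF, and 3 receptors of the ERBB family, EGFR, ERBB2 and ERBB3. These 10 genes are a named family, found by symbol among the 61541 genes of the count table, and all 10 had 1 row each. They were selected on their fold changes between knockdown and control in these same libraries, so those differences between the groups are given as a description, without p-values. RNA was sequenced from 6 libraries of cells labelled A498, a human renal carcinoma line. Of these, 3 carried a control short hairpin RNA (shcontrol) and 3 an shRNA against RNF26 (shRNF26), an E3 ubiquitin ligase of the endoplasmic reticulum membrane. Both groups share the culture medium (RPMI-1640 with fetal bovine serum) and a treatment label that names transfection or infection. The labels name no hairpin sequence, number of hairpins or clone. They also leave out whether each replicate was its own culture, so the p-values rest on a spread between libraries that may be technical.

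EGF family ligands are made as membrane-spanning precursors. Metalloproteases of the ADAM family release the ligand part, which then binds receptors on the same or on neighbouring cells. EGF, TGFA, AREG and EPGN products bind EGFR, while the HBEGF, BTC and EREG products also bind ERBB4. Ligand binding makes the receptors pair and phosphorylate each other. ERBB2 has no known ligand of its own and serves as a partner, and ERBB3 binds neuregulins but has little kinase activity. The RAS to ERK cascade below the receptors induces genes for ligands and for feedback inhibitors, so the family is known for loops in which a cell makes its own growth factor. EGFR is abundant in many epithelia, renal tubules and squamous epithelium included.

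The HBEGF, EREG, AREG and TGFA transcripts were 2.02-fold to 5.05-fold lower in the RNF26 knockdown libraries, and those of EPGN and BTC overlapped between the groups. EGFR was 1.36-fold lower, while ERBB2 was 1.27-fold and ERBB3 1.18-fold higher. EGF was at or near 0 throughout. Before the values, the sequences just upstream of 4 ligand genes are shown. HBEGF had the largest difference. EPGN, EREG and AREG are neighbours on chromosome 4, of which EREG and AREG were lower and EPGN was not. Each stretch is the 250 bases before the annotated start, 5′ to 3′ on the strand of the gene, from RefSeq on GRCh38.p14. Capitals mark every match, on either strand, to the AP-1 site TGANTCA, the CRE (cyclic AMP response element) TGACGTCA, its core TGACG and the GC box GGGCGGGG, and, on the gene's strand only, the TATA motif TATAAA. The windows are chr5:140346604-140346853 (minus strand) for HBEGF and, on the plus strand, chr4:74308220-74308469 for EPGN, chr4:74364895-74365144 for EREG and chr4:74444886-74445135 for AREG.
HBEGF: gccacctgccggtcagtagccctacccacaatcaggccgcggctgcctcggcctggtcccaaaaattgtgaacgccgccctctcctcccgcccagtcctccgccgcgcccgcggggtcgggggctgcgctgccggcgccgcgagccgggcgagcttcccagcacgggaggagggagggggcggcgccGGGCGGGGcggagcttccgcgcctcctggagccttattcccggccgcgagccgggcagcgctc
EPGN: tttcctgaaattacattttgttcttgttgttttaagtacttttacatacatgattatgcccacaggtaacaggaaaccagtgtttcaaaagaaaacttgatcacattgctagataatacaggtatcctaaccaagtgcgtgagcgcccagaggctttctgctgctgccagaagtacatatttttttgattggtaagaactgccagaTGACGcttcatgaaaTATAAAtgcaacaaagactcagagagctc
EREG: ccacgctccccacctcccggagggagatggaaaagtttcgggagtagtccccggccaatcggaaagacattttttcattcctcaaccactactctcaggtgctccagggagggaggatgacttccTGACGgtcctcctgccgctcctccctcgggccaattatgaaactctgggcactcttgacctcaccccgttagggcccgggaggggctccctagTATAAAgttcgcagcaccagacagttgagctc
AREG: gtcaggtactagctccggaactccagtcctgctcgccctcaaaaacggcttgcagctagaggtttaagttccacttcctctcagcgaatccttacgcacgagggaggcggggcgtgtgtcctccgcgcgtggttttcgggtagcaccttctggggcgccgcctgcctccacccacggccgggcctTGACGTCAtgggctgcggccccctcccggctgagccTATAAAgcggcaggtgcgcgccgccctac

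All 3 neighbouring genes printed have TATAAA close to the start, 29 to 24 bases upstream in AREG and EPGN and 32 to 27 bases upstream in EREG. HBEGF has no match to it in its window. Nor has BTC, which lies beside AREG on chromosome 4 and whose window holds none of the marked motifs. TATAAA occurs in 6.80% of 35116 promoter windows of the same length over all genes, and in 3.75% of 15642 windows of genes tested here. AREG alone of the members holds the full CRE, 65 to 58 bases upstream, a motif found in 1.65% of all windows and 2.40% of those of tested genes. The core TGACG, which the full site contains, occurs in 21.2% of all windows and 27.2% of those of tested genes, and also lies upstream of EREG (125 to 121 bases), EPGN (44 to 40 bases) and the first of the 2 TGFA starts (154 to 150 bases). HBEGF has the GC box 63 to 56 bases upstream, a motif held by 21.8% of all windows and 33.9% of those of tested genes. The AP-1 letters, found in 6.57% of all windows and 4.73% of those of tested genes, occur in those of EGF and ERBB2 and at the second of the 2 EGFR starts, and in none of the 4 printed. No member's window holds the CArG box bound by SRF, which 1.16% of all windows and 1.04% of those of tested genes hold. RefSeq promoters were matched for 9 of the 10 members, with 11 windows in all, and ERBB3 was not among them. A match is a stretch of letters and not a measured binding site, and EPGN, whose groups overlapped, shares the TATA motif and the CRE core with EREG.

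The libraries held 16682871 to 18021718 gene counts. RNF26 had 35331, 31901 and 31928 counts with the control shRNA and 1216, 1274 and 1175 with the RNF26 shRNA, which left 3.48% of the control level. The control counts of RNF26 were well above those of EGFR (10894, 10318 and 10135), and the reason for this high level was not tested. The renal label was checked against 10 renal and clear cell carcinoma markers, of which 9 had a mean below 1 CPM (counts relative to library size, here scaled by the trimmed mean of M values, TMM), while PAX8 had 34 to 53 counts. All 8 squamous epithelial markers were above 1 CPM, among them KRT5 at 583 ± 21.3 and TP63 at 173 ± 7.37 CPM in the control libraries (mean ± SD, n = 3). The squamous markers KRT14 (4.04 ± 0.464 CPM) and SPRR1B (5.13 ± 1.02 CPM) were low there, not far above PAX8 (2.90 ± 0.357 CPM). The data thus go against the labelled cell type, and the cells are called by their label without a type. The summed squamous markers ranged from 2080 to 2220 CPM in the control and from 1540 to 1620 CPM in the knockdown libraries, while TP63 was higher in the latter (194 ± 3.12 CPM). Fibroblast, endothelial and leukocyte markers had 1 of 4, 1 of 3 and 1 of 3 members above 1 CPM. The fibroblast sum, nearly all of it COL1A1, ranged from 55.2 to 66.2 CPM in the control and from 81.9 to 88.2 CPM in the knockdown libraries, and COL1A2, DCN, CDH5, PTPRC and CD3E were at or near 0. The part of these shifts in the results below was not tested. In bulk RNA, fewer cells of a type and less RNA per cell cannot be told apart.

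Of the 10 members, 9 passed the minimum mean of 1 CPM, all but EGF. In edgeR's quasi-likelihood fit over 14766 genes (adjusted p below 0.05), 5 of the 9 were called lower and 2 higher. That fit called 41.4% of all tested genes, 22.6% lower and 18.9% higher, and nothing is read from the members' count because this contrast chose them. HBEGF, TGFA, AREG and EREG were also at least 2-fold lower, as were 2.40% of all tested genes. The libraries of the groups did not overlap for 5 members that were lower and 2 that were higher, and did not overlap for 50.1% of all tested genes, 25.9% lower and 24.2% higher. Over all tested genes, 3332 were lower and 2785 higher, a split that turned to 2266 lower and 4451 higher when libraries were scaled by total counts alone. That scaling raised the median log2 fold change of all tested genes from 0.01 to 0.10, and under it the 7 called members kept their direction and call. AREG (log2 fold change -0.94) and EREG (-0.92) then fell short of a 2-fold difference. The members' median was -0.45, with -1.02 over the 6 tested ligands and 0.24 over the 3 receptors.

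**Figure D1:**
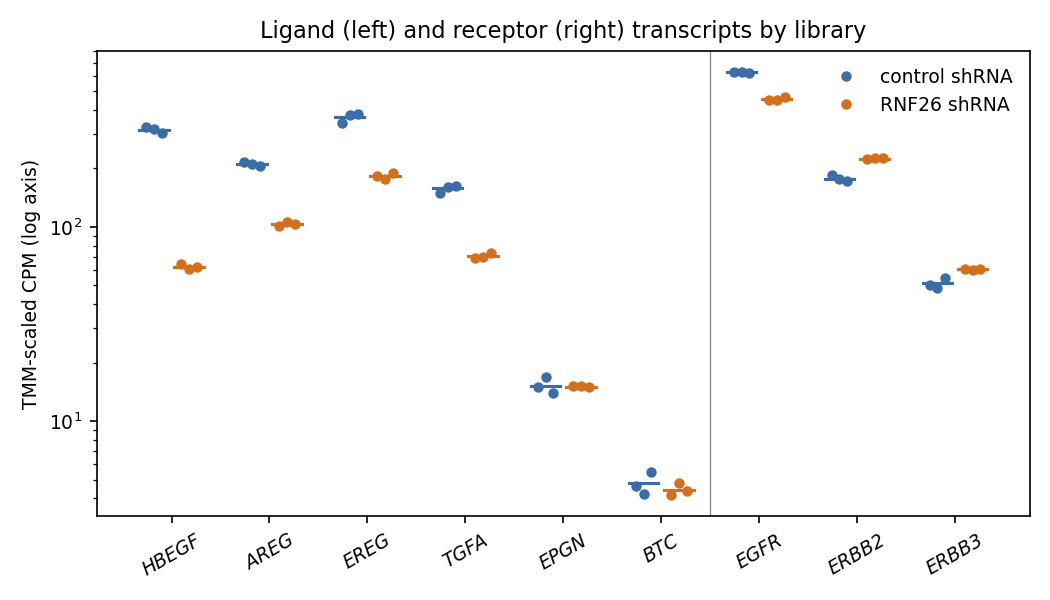
Level of 9 members in each library, as TMM-scaled CPM on a log axis. Points are libraries and short lines are means of 3, and blue and orange do not overlap for HBEGF, AREG, EREG, TGFA, EGFR, ERBB2 and ERBB3, while they overlap for EPGN and BTC. EGF, at 0 in 4 of 6 libraries, is not drawn.

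HBEGF (ENSG00000113070) encodes heparin-binding EGF-like growth factor, whose precursor is also the receptor for diphtheria toxin. Its level was 325, 318 and 304 CPM with the control shRNA and 64.2, 60.7 and 62.5 CPM with the RNF26 shRNA. The lowest control library was thus several times above the highest knockdown library. The knockdown mean of 62.5 ± 1.73 CPM was 19.8% of the control mean of 316 ± 10.3 CPM. The log2 fold change was -2.34 (SE 0.045), rank 58 among all tested genes when ordered from the largest fall. Counts behind these values were 4996 to 5650 and 1075 to 1140.

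TGFA (ENSG00000163235) encodes transforming growth factor alpha, a classical EGFR ligand of epithelial and carcinoma cells. Its level was 149, 161 and 163 CPM in the control and 69.3, 69.6 and 73.2 CPM in the knockdown libraries, with no overlap. The mean was 44.9% of the control mean, with a log2 fold change of -1.16 (SE 0.049). TGFA overlaps the intronic transcript TGFA-IT1 on the same strand in GENCODE 29.

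AREG (ENSG00000109321) encodes amphiregulin, an EGFR ligand of lower affinity that keratinocytes and many carcinomas secrete. It was at 216, 211 and 206 CPM with the control shRNA and at 101, 106 and 103 CPM after knockdown. All 3 knockdown values lay close to the midpoint between 0 and the control values. The mean was 48.9% of the control mean (log2 fold change -1.03, SE 0.043). Older annotations listed a near-identical copy, AREGB, and the count table had 0 rows under that name.

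EREG (ENSG00000124882) encodes epiregulin, whose product binds EGFR and ERBB4 and acts together with AREG in skin and ovary. Its level was 343, 379 and 382 CPM in the control libraries, against 183, 176 and 190 CPM in the knockdown libraries. Control replicate 1 was the lowest control library and still stood well above every knockdown library. The mean was 49.6% of the control mean (log2 fold change -1.01, SE 0.047). The 95% intervals of AREG (-1.12 to -0.94) and EREG (-1.11 to -0.91) both include -1, that is, a halving. The fold changes of these ligands and TGFA (-1.26 to -1.05) lay in a narrow band, and that of HBEGF (-2.43 to -2.24) lay outside it.

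EPGN (ENSG00000182585) encodes epigen, the least well known ligand of EGFR. Its level was 14.9, 16.9 and 13.9 CPM with the control shRNA and 15.1, 15.1 and 14.9 CPM after knockdown. The groups overlapped, the log2 fold change was -0.02 and its 95% interval was -0.22 to 0.19. The sign turned with the setting, to 0.08 with total-count scaling and 0.06 without control replicate 2. Its neighbours EREG and AREG had log2 fold changes of -1.01 and -1.03.

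BTC (ENSG00000174808) encodes betacellulin, a ligand of EGFR and ERBB4. It was low, at 4.65, 4.20 and 5.48 CPM in the control and 4.16, 4.78 and 4.36 CPM in the knockdown libraries. The groups overlapped again, and the log2 fold change of -0.11 had a 95% interval of -0.46 to 0.25. At 69 to 90 counts per library, a change of the size seen in EGFR was within that interval and so was not excluded at this depth.

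EGF (ENSG00000138798) encodes the growth factor after which the family is named, which the kidney's distal tubule makes in quantity. It had 0 counts in each control library and 5, 5 and 0 counts in the knockdown libraries. With 0 counts observed, up to 3 remain possible (0.166 to 0.180 CPM, unscaled), so no fold is given. This limit covers counting error only. EGF did not pass the filter on low counts, and without that filter it was called higher on these 10 counts.

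EGFR (ENSG00000146648) encodes the receptor for all 7 ligands. Its level was 626, 628 and 617 CPM in the control and 452, 452 and 467 CPM in the knockdown libraries. The groups did not overlap, and the mean was 73.3% of the control mean (log2 fold change -0.45, SE 0.035). EGFR thus differed in the same direction as the 4 abundant ligands, by a smaller factor than any of them. The antisense transcript EGFR-AS1 overlaps it, and the strand setting of the counting was not given in the sources used here.

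ERBB2 (ENSG00000141736) encodes the partner receptor also known as HER2. It was at 184, 176 and 172 CPM with the control shRNA and at 223, 226 and 225 CPM after knockdown, higher in every knockdown library than in any control library. The log2 fold change was 0.34 (SE 0.041). ERBB2 overlaps PGAP3 and MIEN1 on the opposite strand.

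ERBB3 (ENSG00000065361) encodes the neuregulin receptor HER3. Its level was 50.5, 48.6 and 54.3 CPM in the control and 60.6, 59.9 and 60.7 CPM in the knockdown libraries. The gap between the groups was small but the libraries did not overlap (log2 fold change 0.24, SE 0.057). ERBB3 overlaps the gene AC034102.2 on the same strand. The 95% intervals were 0.26 to 0.43 for ERBB2, 0.12 to 0.36 for ERBB3 and -0.52 to -0.37 for EGFR. Because the members were selected on this contrast, their intervals are a description and not a test.

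**Figure D2:**
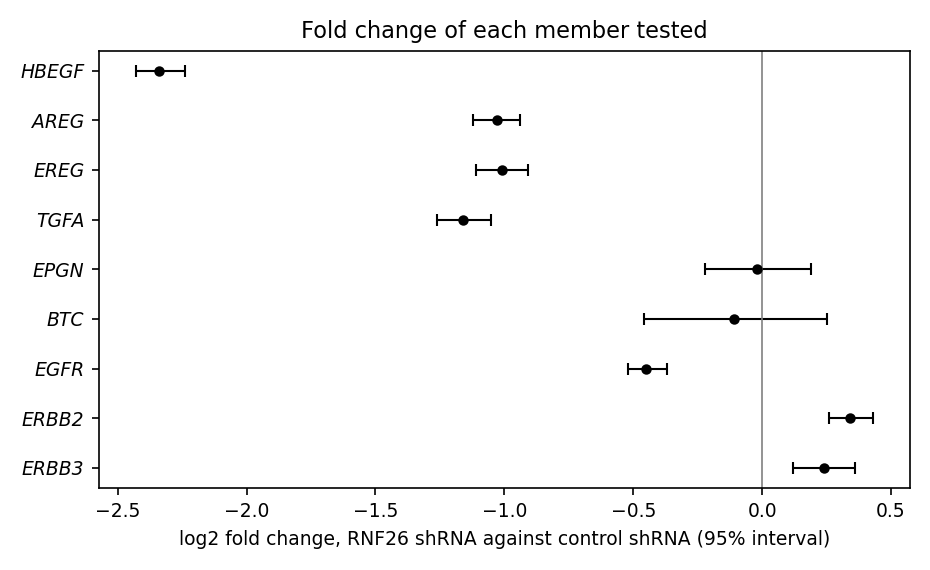
Log2 fold change of the 9 tested members with the 95% interval of the edgeR fit (x axis), knockdown against control. HBEGF lies apart at -2.34, TGFA, AREG and EREG lie together between -1.16 and -1.01, EPGN and BTC cross 0, and the receptors divide into EGFR below 0 and ERBB2 and ERBB3 above it.

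Ratios of 2 genes within a library do not depend on how the libraries are scaled. The ERBB2 to EGFR count ratio was 0.295, 0.280 and 0.278 with the control shRNA and 0.494, 0.499 and 0.482 after knockdown. The receptors therefore differed in their proportions whatever the scaling. The HBEGF to EREG ratio was 0.860 ± 0.0772 in the control and 0.342 ± 0.0115 in the knockdown libraries, while the AREG to EREG ratio was 0.575 ± 0.0495 and 0.565 ± 0.0340 with overlapping libraries (n = 3). AREG and EREG were thus lower by about the same factor. The TGFA to EREG ratio was slightly lower in the knockdown libraries, 0.387 ± 0.00819 against 0.428 ± 0.00529, without overlap.

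To compare levels between genes, CPM was divided by the length of the longest principal transcript in GENCODE 29, from 1196 bases for EPGN to 9821 bases for EGFR. On this per-length scale the order in the control libraries was AREG (170 ± 4.25 CPM per kb), HBEGF (132 ± 4.34), EREG (79.7 ± 4.74), EGFR (63.5 ± 0.583), ERBB2 (39.0 ± 1.41), TGFA (36.6 ± 1.74), EPGN (12.7 ± 1.27), ERBB3 (8.64 ± 0.494), BTC (1.70 ± 0.231) and EGF (0). Only ERBB2 and TGFA overlapped between neighbours in that order. In the knockdown libraries AREG stayed first at 83.2 ± 2.16 CPM per kb, followed by ERBB2 (49.5 ± 0.297), EGFR (46.6 ± 0.883), EREG (39.6 ± 1.55) and HBEGF (26.2 ± 0.727), and no neighbours overlapped. HBEGF thus went from the second to the fifth place and ERBB2 from the fifth to the second. With the summed length of all annotated exons instead, HBEGF held the same places, but ERBB2 went from the sixth to the fourth, because its annotated exons sum to 10321 bases against 4545 in the principal transcript.

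The summed ligand level was 433 ± 5.0 CPM per kb in the control and 180 ± 1.53 CPM per kb in the knockdown libraries, and the summed receptor level was 111 ± 1.53 and 106 ± 1.0 CPM per kb. HBEGF made up 30.5% ± 0.808 of the ligand sum in the control and 14.6% ± 0.458 in the knockdown libraries, AREG 39.3% ± 0.866 and 46.4% ± 1.15, and EPGN 2.94% ± 0.257 and 7.01% ± 0.105 (SD, n = 3). The larger shares of AREG and EPGN arose in a smaller sum and not from higher levels of either. Among the receptors, EGFR made up 57.1% ± 0.603 and 43.8% ± 0.416 and ERBB2 35.1% ± 0.819 and 46.5% ± 0.404. With summed exon lengths, EGFR remained the larger share in both groups, at 68.6% ± 0.503 and 56.2% ± 0.436. On that scale the receptor sum was 72.7 ± 0.702 CPM per kb in the control and 65.0 ± 0.757 in the knockdown libraries, so its difference depends on the length used. Shares of transcripts do not measure the amounts of protein.

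**Figure D3:**
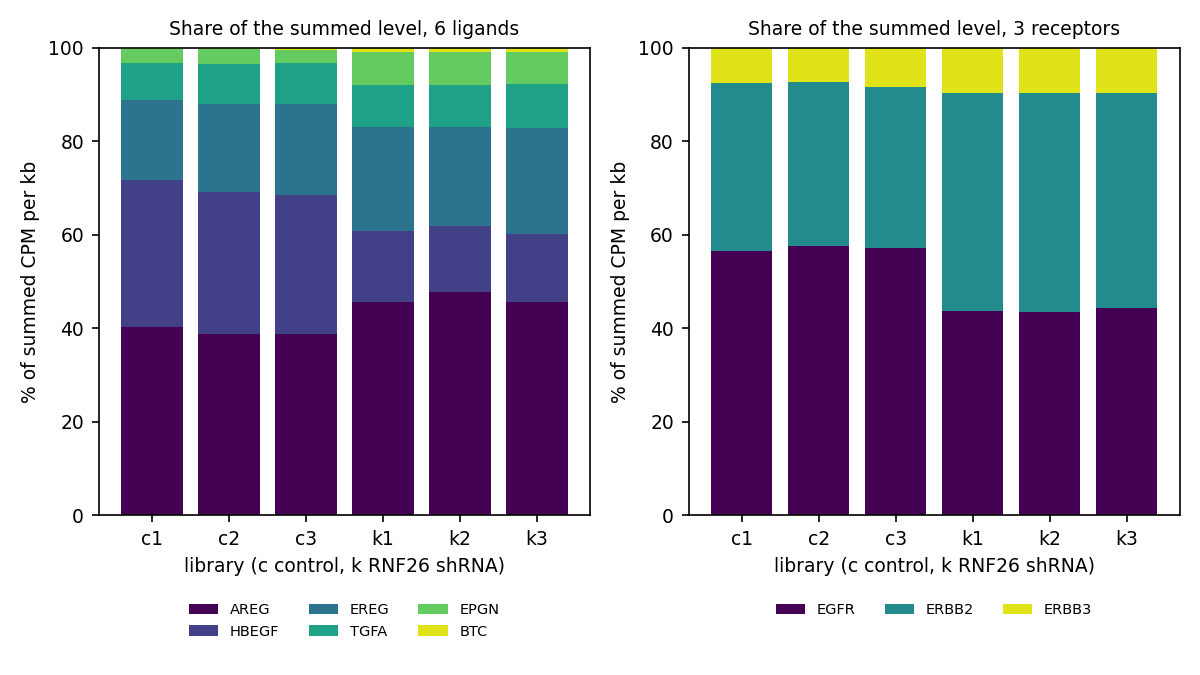
Share of each ligand in the summed ligand level (left) and of each receptor in the summed receptor level (right), in percent of CPM per kb, for control (c) and RNF26 knockdown (k) libraries 1 to 3. The HBEGF share is 29.8% to 31.4% in the control and 14.2% to 15.1% in the knockdown libraries, and EGFR gives way to ERBB2 as the largest receptor share on this length scale. EGF, at most 0.0324%, is left out.

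EPGN, EREG, AREG and BTC lie next to each other on chromosome 4 with no other protein-coding gene between them in GENCODE 29. The 2 in the middle of the run were at 49.6% and 48.9% of their control levels, and the 2 at its ends overlapped between groups. Of the 12 protein-coding genes that flank the run, 6 on each side, 8 were tested, of which 5 were lower and 0 higher (edgeR adjusted p below 0.05), beside 22.6% lower and 18.9% higher among all tested genes. Their median log2 fold change was -0.22 against 0.01 over all tested genes. At an unadjusted p below 0.05 the count higher was also 0 with edgeR and with DESeq2. PF4 and PPBP had no counts in any library. The neutrophil-attracting chemokine gene CXCL2 fell from 210 ± 13.7 CPM to 59.2 ± 4.35 CPM (-1.83 as log2 fold change, SE 0.058, adjusted p = 4.31e-15), and its relatives CXCL3 (-0.40) and CXCL5 (-0.27) also fell. Without control replicate 3 the value of CXCL3 was -0.24, and with total-count scaling that of CXCL5 was -0.18, both still called. MTHFD2L, an enzyme gene of mitochondrial folate metabolism, lies between the chemokines and EPGN. It had 10.6 ± 0.185 and 9.48 ± 0.337 CPM (log2 fold change -0.16, adjusted p = 0.236). Its knockdown libraries were all below its control libraries, as were those of 25.9% of all tested genes. On the BTC side PARM1 had a log2 fold change of 0.01 (adjusted p = 0.984), which changed sign with the setting, and THAP6 -0.09 (adjusted p = 0.553), which was 0.00 with total-count scaling. The ubiquitin ligase gene RCHY1 fell (-0.42, adjusted p = 0.00131). G3BP2, a stress granule gene, had a log2 fold change of -0.17 (adjusted p = 0.0109). It was no longer called with total-count scaling (-0.08), on leaving out control replicate 2 (-0.16), or on leaving out replicate 1 (-0.16) or 2 (-0.13) of the knockdown. ODAPH had 1 to 4 and CDKL2 5 to 14 counts per library. The closest neighbours of the run on either side were thus not called, and the large differences within the region were in CXCL2, EREG and AREG.

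**Figure D4:**
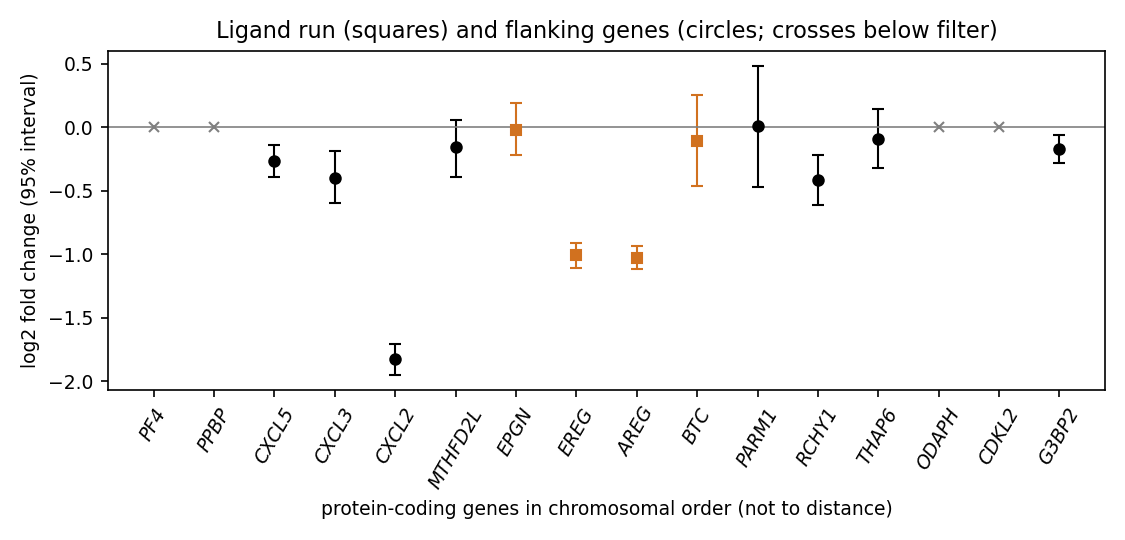
Log2 fold change with 95% interval for the 4 neighbouring ligand genes (squares) and 6 protein-coding genes on each side (circles), in chromosomal order without distances. EREG and AREG lie near -1 between EPGN and BTC near 0, CXCL2 lies at -1.83, and crosses mark 4 genes below the minimum mean of 1 CPM.

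The rest of the ERBB system was described by lists that were written with earlier results of these data known. Among the other ERBB ligands and the remaining receptor, the neuregulin gene NRG1, whose product binds ERBB3 and ERBB4, fell from 63.4 ± 0.287 CPM to 45.1 ± 1.53 CPM (-0.49 as log2 fold change, SE 0.055, adjusted p = 7.34e-07). NRG4, an ERBB4 ligand, rose from 3.15 ± 0.490 to 5.92 ± 0.820 CPM (log2 fold change 0.91, adjusted p = 0.000499), on 47 to 61 counts against 94 to 116. NRG2 was near the lowest level tested and was not called (-0.46, adjusted p = 0.302). Its value rested on single libraries, at -0.08 without control replicate 1, -0.70 without control replicate 3 and -0.28 without knockdown replicate 1. The receptor gene ERBB4 had 1, 5 and 1 counts in the control and 8, 5 and 1 in the knockdown libraries, and NRG3 had none. Of the 5 genes, 3 were tested, 1 fell and 1 rose, beside 22.6% lower and 18.9% higher among all tested genes. With 3 genes tested, nothing is read from these counts.

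Of 14 tested genes for the release and export of the ligands, 6 fell, 0 rose and 8 were not called, beside 22.6% lower and 18.9% higher among all tested genes. The median log2 fold change was -0.01. At an unadjusted p below 0.05, 1 was higher with edgeR and 1 with DESeq2. At total-count scaling the median was 0.08, with 4 lower and 4 higher. TIMP3, an inhibitor of ADAM proteases, fell from 329 ± 1.97 to 223 ± 0.910 CPM (-0.56, adjusted p = 4.52e-10). The metalloprotease genes ADAM19 (-0.54) and ADAM9 (-0.29) and CNIH1 (-0.33), whose product helps export the TGFA precursor, also fell. ADAM17, the main protease for HBEGF, AREG, EREG and TGFA, and ADAM10, the main one for EGF and BTC, were picked for mention after their values were seen. ADAM17 had 61.9 ± 1.44 and 62.4 ± 4.69 CPM (log2 fold change 0.01, adjusted p = 0.894) and ADAM10 244 ± 8.57 and 256 ± 5.66 CPM (0.07, adjusted p = 0.183).

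Of 18 tested adaptors and enzymes that receptors recruit, 5 fell, 5 rose and 8 were not called. Both counts lie near the background of 22.6% lower and 18.9% higher among all tested genes, so nothing is read from them. The median was 0.02, and scaling by total counts gave 2 lower and 8 higher. The docking protein gene GAB2 fell from 20.1 ± 0.510 to 13.1 ± 1.06 CPM (-0.62, adjusted p = 2.18e-05) and the adaptor gene CRK from 23.0 ± 1.37 to 17.6 ± 0.989 CPM (-0.38, adjusted p = 0.00123). PLCG1, which encodes phospholipase C gamma, rose from 296 ± 5.53 to 352 ± 13.3 CPM (0.25, adjusted p = 5.49e-05). PIK3CA, a PI3-kinase subunit gene, fell (-0.27), a call lost with total-count scaling (-0.18, adjusted p = 0.0669).

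In the RAS to ERK cascade 7 of 16 tested genes fell, 1 rose and 8 were not called, where 41.4% of all tested genes were called, 22.6% lower and 18.9% higher. The median was -0.11. Scaling by total counts gave 3 lower and 2 higher, and without control replicate 3 only 4 were lower. NRAS fell from 144 ± 5.60 to 114 ± 4.84 CPM (-0.34, adjusted p = 1.12e-05) and the kinase gene MAP2K1 from 134 ± 6.85 to 110 ± 4.59 CPM (-0.28, adjusted p = 0.000172). HRAS had counts of 267, 167 and 170 against 177, 164 and 86, and its fall (-0.59) did not pass on leaving out control replicate 1 (-0.37), on leaving out knockdown replicate 3 (-0.34) or with DESeq2 (-0.58). The scaffold gene KSR1 rose (0.27, adjusted p = 0.0134), but was not called when control replicate 2 (0.22) or knockdown replicate 3 (0.22) was left out.

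Of 24 tested genes that feed back on the receptors or send them to degradation, 11 fell, 4 rose and 9 were not called, with a median of -0.13. Of all tested genes 22.6% were lower and 18.9% higher, so the count of genes that rose is near the background. SPRY4, an inhibitor of RAS activation, fell from 73.3 ± 0.698 to 16.1 ± 0.668 CPM (-2.18, SE 0.063, adjusted p = 1.21e-15) and its relative SPRY2 from 81.7 ± 0.716 to 29.2 ± 1.49 CPM (-1.49). ERRFI1, whose product binds and inhibits the EGFR kinase, fell from 195 ± 9.02 to 89.4 ± 4.19 CPM (-1.12, adjusted p = 6.88e-13). SH3KBP1, an adaptor of receptor endocytosis, fell by 0.83 on the log2 scale. The 4 that rose, named after their values were seen, were the ubiquitin ligase genes CBLB (0.29) and CBLC (0.17), the latter a member found in epithelia, and LRIG2 (0.25) and LRIG3 (0.21), relatives of the ERBB inhibitor gene LRIG1. Without control replicate 3 or without knockdown replicate 2, 2 genes of this list were called higher.

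ERK output genes, 10 transcripts commonly used to read the activity of the cascade, were lower together. Of 10 tested, 9 fell, 0 rose and the ephrin receptor gene EPHA4, named after its value was seen, was not called (0.11, adjusted p = 0.494). The median was -1.14, against 0.01 over all tested genes, of which 22.6% were lower. The count of genes higher was also 0 at an unadjusted p below 0.05, and 0 with DESeq2. EPHA2, another ephrin receptor gene, fell from 620 ± 49.1 to 198 ± 5.55 CPM (-1.65, SE 0.050, adjusted p = 2.39e-15) and the transcription factor gene ETV5 from 14.2 ± 0.624 to 5.76 ± 0.612 CPM (-1.30, adjusted p = 4.10e-08). SPRY4 and SPRY2 belong to this list too. The log2 fold changes of HBEGF, TGFA, AREG and EREG lay within the range of these 9 genes except for HBEGF, which was lower than SPRY4, the lowest of them. Transcript levels do not measure the phosphorylation of ERK or of a receptor, and whether the fall of these genes is tied to that of the ligands was not tested.

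**Figure D5:**
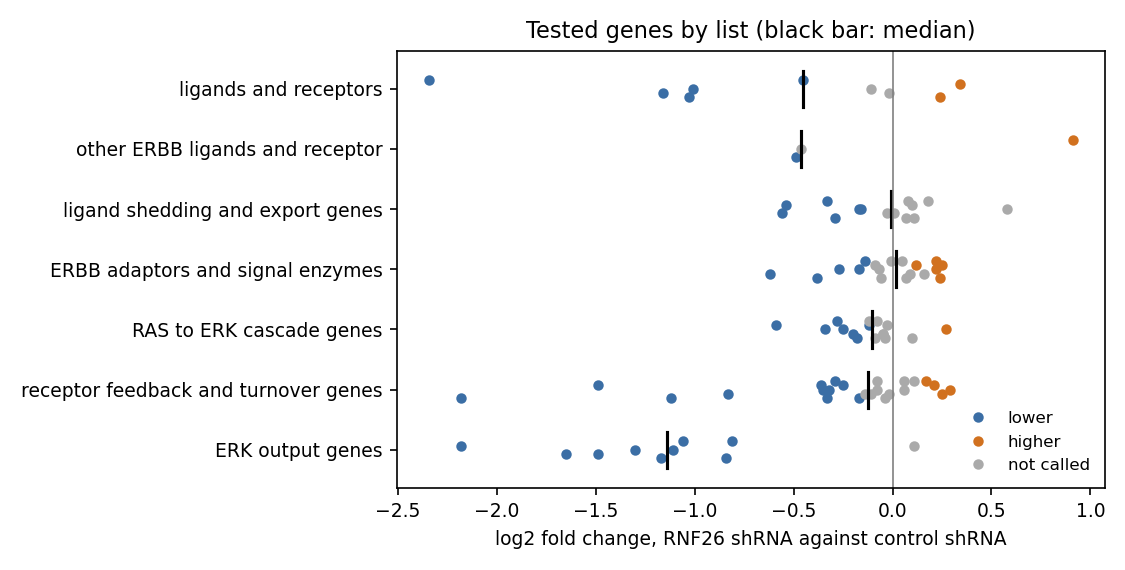
Log2 fold changes (x axis) of the tested genes of each list, 1 point per gene, coloured by the edgeR call, with the median as a black bar. The ERK output genes sit left of 0 with a median of -1.14 except EPHA4, while the lists for shedding and for adaptors have medians of -0.01 and 0.02.

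HBEGF, the member with the largest difference, was compared with all other tested genes by the root mean square difference of their log2(CPM + 0.1) profiles over the 6 libraries, each centred on its mean. With 2 groups of 3 this likeness mainly reflects the size of the group difference. The nearest were EGR1 (0.0521), an immediate early transcription factor gene that went from 93.6 ± 4.51 to 18.2 ± 0.576 CPM, and KLF4 (0.0785), a transcription factor gene of epithelial differentiation. SPRY4 (0.0824), the peptide hormone gene ADM2 (0.105) and the AP-1 subunit gene FOSL1 (0.107) followed. FOSL1 was at 708 ± 8.24 CPM in the control and at 162 ± 1.30 CPM in the knockdown libraries.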

How the data were processed

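RNA-seq libraries were made with a directional kit per the labels' protocols. The authors deposited 1 table of gene counts for the 6 libraries. Although it is named for FPKM, its values are raw counts, whole numbers whose totals differ between libraries. The submitters' processing notes name hg19 as the genome build. Not given in the sources used here are the aligner, the counter, the annotation and the strand setting. Rows with a blank name numbered 2, held 0% of the counts and were dropped. Gene symbols were taken from a gene name table for 61369 of 61541 IDs and from GENCODE 29 for 159 more. GENCODE 29 and the RefSeq promoters are on GRCh38, so they gave lengths, gene order, overlaps and sequence, and were not joined to hg19 positions.

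The 14766 genes whose mean reached 1 CPM were tested by quasi-likelihood (two-sided) in edgeR 4.0.16, under R 4.3.3, with TMM scaling (factors 0.9659 to 0.9705 in control and 1.031 to 1.033 in knockdown libraries). The p-values were adjusted by Benjamini-Hochberg over all of them, with a threshold of 0.05, after tests on simulated data. SE was taken from the F statistic, as |log2 fold change| divided by its root. Replicate pairs differed by more than sampling noise (chi-square per degree of freedom 2.15 to 4.28). The members and lists were chosen with earlier results of these data known. The members were always named, as were genes with counts in the neuregulin and flanking lists. Of other lists up to 4 called genes with the largest change were named, and ADAM17, ADAM10, CBLB, CBLC, LRIG2, LRIG3 and EPHA4 were added after their values were seen. Alternatives were total-count and RLE scaling, DESeq2 1.42.0, no filter, a minimum of 5 CPM, a replicate block and leaving out each library.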

Additional observations from a re-analysis of the deposited data

How the results depend on the processing

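Of 107 values of the 9 tested members under the 12 alternatives, 105 kept their direction and their side of the threshold. The others were EPGN, which was not called in any and changed sign to 0.08 with total-count scaling and, in a range of -0.08 to 0.06 when 1 library was left out, without control replicate 2. HBEGF ranged from -2.37 to -2.25, EGFR from -0.46 to -0.36 and ERBB2 from 0.32 to 0.43. AREG (-1.05 to -0.94) and EREG (-1.06 to -0.92) ranged across -1, so whether they were 2-fold lower depended on the setting. Under a minimum of 5 CPM BTC was not tested. Without a filter 3 members were called higher, EGF being the third. With total-count scaling 4451 of all genes were higher, as were 4 shedding genes, 8 adaptors (2 lower) and 2 cascade genes (3 lower). With a minimum of 5 CPM, 1 shedding gene and 0 of the other ERBB ligands were higher. Leaving out 1 library gave 3 to 5 adaptors higher, 4 to 6 cascade genes lower and 0 to 1 higher, and 2 to 3 feedback genes higher. PARM1 turned to -0.01 with the replicate block and ranged from -0.13 to 0.22 when 1 library was left out, below 0 in 3 of these 6 fits. THAP6 was 0.00 with total-count scaling. The replicate block left 5 members lower and 2 higher, with 3479 genes lower and 2935 higher. Same-numbered libraries did not deviate together (correlations 0.011, -0.0272 and 0.0934), and not every library correlated best with its own number. Depth limits EGF, ERBB4 and BTC.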
